A study of Glycine max with 4 samples.

Results

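Isoflavone and glyceollin synthesis was followed through 7 soybean (Glycine max) genes, out of 47973 genes listed in at least 1 of 4 root libraries. The 7 genes were set by a list of identifiers, without a cut on their values, but with earlier results of these data known. They are the isoflavone synthases IFS1 and IFS2, the 2-hydroxyisoflavanone dehydratase HIDH, the glyceollin prenyltransferases G4DT and G2DT, and the regulators NAC42-1 and MYB29A2. They fall into 3 isoflavone genes, taken as constitutive, and 4 glyceollin genes, taken as inducible. The libraries came from transgenic plants with suppressed GmHAD1-2 (labelled Ri, 2 libraries) and from wild-type plants (WT, 2 libraries). Both genotypes were kept for 12 days in nutrient solution with KH2PO4, for which the design text gives 250 mM (a unit in doubt, since nutrient solutions usually hold micromolar phosphate). Which promoter drove the suppression construct, how many transgenic events were used and how many plants made up a library is not stated in the labels or the design text. The labels name no elicitor or pathogen treatment. The design text calls the libraries of a genotype biological replicates. The p-values measure only the spread between these libraries.

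Isoflavones are legume flavonoids that roots store and release, and some of them signal to nodulating rhizobia. Isoflavone synthase, a cytochrome P450 enzyme of the endoplasmic reticulum, turns a flavanone into a 2-hydroxyisoflavanone, and HIDH removes water from that product to give daidzein or genistein. Daidzein is also the starting point of the glyceollins, the pterocarpan phytoalexins that soybean makes when attacked. G4DT and G2DT attach a dimethylallyl group to different carbons of the pterocarpan glycinol. NAC42-1 and MYB29A2 are transcription factors of the NAC and MYB families that promote elicited glyceollin synthesis in soybean.

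The names come from the list of members, because 0 of the 47973 identifiers matched the RefSeq gene table used here (assembly Glycine_max_v4.0, 59048 genes). That table holds all 7 names, and for 6 of them its chromosome is the one carried by the identifier. The exception is MYB29A2: the table has this name as a synonym of a gene on chromosome 10, whereas the identifier here, Glyma.02G005600.Wm82.a2.v1, is of chromosome 2. The table also gives IFS1 and IFS2 as synonyms of each other's gene.

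The libraries held 10077854 to 11070260 expected counts (estimated numbers of fragments per gene), and 34151 genes passed edgeR's filter on low counts, all 7 members among them. Levels are given in FPKM, fragments scaled by transcript length and library depth, which allows genes to be compared with each other. Differences between genotypes were tested on counts and are given as log2 fold changes of Ri over WT with their standard errors (SE). CPM are counts scaled to library size, here after TMM scaling, which adjusts library sizes for composition. Suppression of GmHAD1-2 was not checked, since no identifier could be tied to that name. The root label was not checked against named markers either. Of 6 identifiers noted from general knowledge as markers of other tissue, which no table used here annotates, 4 for nodules were listed in none of the libraries. The other 2, for green shoot, summed to 202 and 527 FPKM in Ri replicates 1 and 2, against 174 and 212 FPKM in WT replicates 1 and 2. Ri replicate 2 thus had the highest sum, and the part of this in the results below was not tested. In bulk RNA, fewer cells that express a gene and less RNA per cell cannot be told apart.

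The isoflavone genes were far more abundant than the glyceollin genes in every library. None of the 7 genes passed the test between genotypes, which only 0.117% of tested genes passed. Both Ri libraries lay below both WT libraries for 5 genes, namely the 3 isoflavone genes and the 2 regulators, a pattern of 18.5% of tested genes. The prenyltransferases did not share this pattern, as G4DT and G2DT were lowest in Ri replicate 1 and highest in Ri replicate 2. All 7 genes had their lowest level in Ri replicate 1, as did 28.6% of tested genes. For G4DT, G2DT and NAC42-1 the counting intervals of that library overlapped those of WT. The Ri libraries differed from each other by 7.01-fold for G4DT, 2.64-fold for MYB29A2 and 2.55-fold for IFS2 in CPM.

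**Figure D1:**
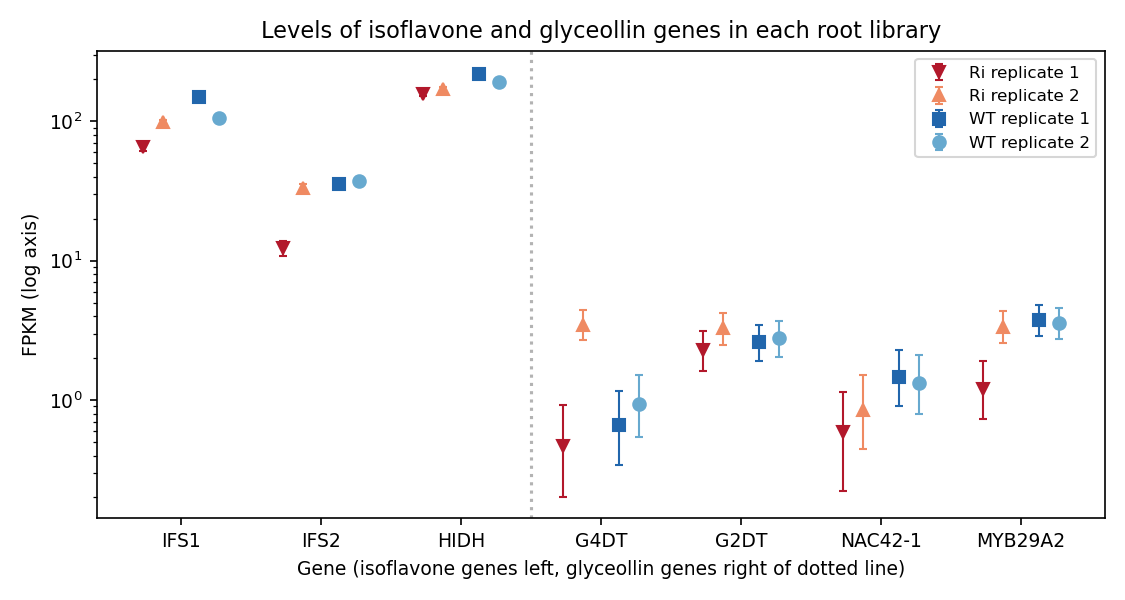
FPKM (log axis) of the 7 genes in each library, Ri left of WT for each gene, with exact Poisson 95% intervals as bars, which cover counting error only. The isoflavone genes, left of the dotted line, lie between 12.3 and 219 FPKM and the glyceollin genes between 0.47 and 3.77 FPKM.

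HIDH (Glyma.01G239600.Wm82.a2.v1, chromosome 1) was the most abundant of the 7 genes. It had 158 and 170 FPKM in Ri replicates 1 and 2, against 219 and 191 FPKM in WT replicates 1 and 2. These levels exceeded those of at least 98.97% of the genes listed in each library. The Ri libraries were close to each other and both lay below both WT libraries. In edgeR its log2 fold change was -0.33 (SE 0.24), a 1.26-fold lower level in Ri, with an adjusted p of 0.892. HIDH differed less between the Ri libraries than any other member, by 1.02-fold in CPM.

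IFS1 (Glyma.07G202300.Wm82.a2.v1, chromosome 7) came second in every library. Its level was 65.0 and 98.5 FPKM in Ri replicates 1 and 2, against 150 and 105 FPKM in WT replicates 1 and 2. Both Ri values were below both WT values, although the WT replicates themselves differed by 1.37-fold in CPM. edgeR gave a log2 fold change of -0.65 (SE 0.29), 1.57-fold lower in Ri, with a p of 0.0640 and an adjusted p of 0.817. It had the smallest p of the 7 genes. Without Ri replicate 1 the log2 fold change was -0.41 (SE 0.30), and without Ri replicate 2 it was -0.94 (SE 0.29). Both fits take their spread from the WT libraries alone.

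IFS2 (Glyma.13G173500.Wm82.a2.v1, chromosome 13) had 12.3 and 33.0 FPKM in Ri replicates 1 and 2, against 35.4 and 37.4 FPKM in WT replicates 1 and 2. Ri replicate 1 stood apart from the other 3 libraries, whereas Ri replicate 2 was only 1.14-fold below the WT mean in CPM. The log2 fold change was -0.71 (SE 0.42), with an edgeR adjusted p of 0.872. Its size rested on Ri replicate 1: the log2 fold change was -0.18 (adjusted p 0.767) without Ri replicate 1 and -1.54 (SE 0.22, adjusted p 7.5e-04) without Ri replicate 2. The second of these fits called 4.57% of 35517 tested genes, 2.78% lower in Ri, and it takes its spread from the WT libraries alone.

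The order HIDH, IFS1, IFS2 was the same in all 4 libraries, and the values of neighbouring genes in this order did not overlap within either genotype. HIDH made up 67.1% and 56.4% of the summed FPKM of the 3 isoflavone genes in Ri replicates 1 and 2, against 54.1% and 57.2% in WT replicates 1 and 2. IFS2 made up 5.22% and 10.9% in Ri replicates 1 and 2, against 8.76% and 11.2% in WT replicates 1 and 2. Thus the makeup of the group in Ri replicate 2 was near that of WT replicate 2, and Ri replicate 1 had the largest HIDH share and the smallest IFS2 share.

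The counts of IFS1 and IFS2 are in part estimates. Neither gene had whole expected counts, but their sums were 1680 and 3137 in Ri replicates 1 and 2 and 4290 and 3285 in WT replicates 1 and 2, whole within 0.025 in every library. Such sums can arise when fragments are divided within a pair, and the sum then does not depend on how the division was made. Each of these genes also met this condition with 1 further gene, so it does not single out this pair. IFS1 took 84.1% and 74.9% of the summed FPKM in Ri replicates 1 and 2, against 80.9% and 73.8% in WT replicates 1 and 2. The IFS1 share was highest in Ri replicate 1 and overlapped between genotypes. Counted as 1 feature, a choice made after seeing the data, the pair had a log2 fold change of -0.67 (SE 0.31, edgeR adjusted p 0.831). Without Ri replicate 2 it was -1.06 (SE 0.29), and without Ri replicate 1 it was -0.36 (SE 0.30). Its size thus rested largely on Ri replicate 1, and both fits take their spread from the WT libraries alone.

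**Figure D2:**
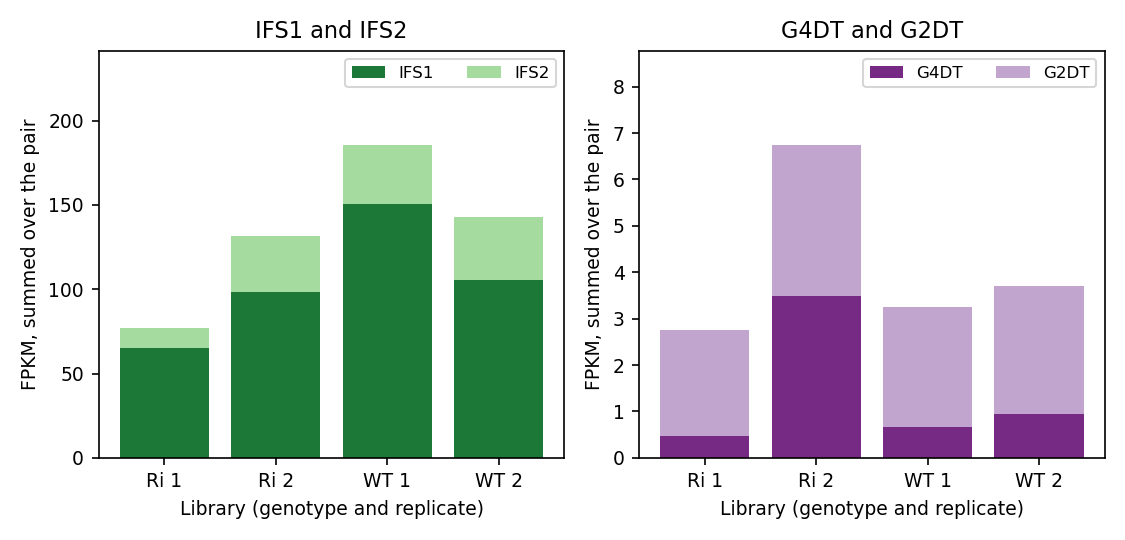
FPKM summed over IFS1 and IFS2 (left) and over G4DT and G2DT (right) in each library, Ri libraries left of WT libraries, with the 2 genes of a pair stacked. The isoflavone synthase sum is lowest in Ri replicate 1 at 77.3 FPKM, and the prenyltransferase sum is highest in Ri replicate 2 at 6.75 FPKM, where G4DT makes up 51.6% of it.

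G4DT (Glyma.10G295300.Wm82.a2.v1, chromosome 10) had few counts in 3 of the 4 libraries and several times more in Ri replicate 2. It had 0.47 and 3.48 FPKM in Ri replicates 1 and 2, against 0.66 and 0.94 FPKM in WT replicates 1 and 2. These values rest on 8 and 65 expected counts in Ri and 12 and 17 in WT. The exact Poisson 95% interval of Ri replicate 2, 2.69 to 4.44 FPKM, lay above those of the other 3 libraries, of which the highest upper bound was 1.51 FPKM. Ri replicate 2 was 7.01-fold above Ri replicate 1 in CPM. A difference as large in either direction was seen in 1.12% of tested genes. Ri over WT had a log2 fold change of 1.27 (SE 0.87), with an edgeR adjusted p of 0.890. It turned to -0.74 (adjusted p 0.690) without Ri replicate 2. Without Ri replicate 1 it was 2.06 (SE 0.45, adjusted p 0.0021), in a fit that called 5.65% of 35310 tested genes, 3.26% higher in Ri, and took its spread from the WT libraries.

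G2DT (Glyma.20G245100.Wm82.a2.v1, chromosome 20) had the smallest ratio of its highest to its lowest library among the glyceollin genes. It had 2.28 and 3.27 FPKM in Ri replicates 1 and 2, against 2.59 and 2.77 FPKM in WT replicates 1 and 2. The WT values lay between the Ri values. Its log2 fold change was 0.04 (SE 0.32), with an edgeR adjusted p of 0.992. This estimate changed sign, to -0.05 without WT replicate 1 and to -0.21 without Ri replicate 2.

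The expected counts of both prenyltransferases were whole in all 4 libraries (within 0.025), as were those of 14.7% of tested genes, so their levels could be compared with each other without a division of fragments. G4DT made up 17.4% and 52.0% of their summed counts in Ri replicates 1 and 2, against 20.7% and 25.8% in WT replicates 1 and 2. The exact (Clopper-Pearson) 95% interval was 7.82% to 31.4% in Ri replicate 1 and 42.9% to 61.0% in Ri replicate 2. It was 11.2% to 33.4% in WT replicate 1 and 15.8% to 38.0% in WT replicate 2. In FPKM, G2DT was 4.85-fold above G4DT in Ri replicate 1 but 0.940 times its level in Ri replicate 2, against 3.92-fold and 2.95-fold above it in WT replicates 1 and 2. In Ri replicate 2 the levels of the pair thus differed by less than the counting error, and in the other 3 libraries G2DT was the higher one.

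The regulator NAC42-1 (Glyma.02G284300.Wm82.a2.v1, chromosome 2) was the least abundant gene by mean FPKM in Ri and the second least in WT. It had 0.59 and 0.85 FPKM in Ri replicates 1 and 2, against 1.47 and 1.32 FPKM in WT replicates 1 and 2. Both Ri values were below both WT values, and the replicates of each genotype were closer to each other than to the other genotype. Its log2 fold change was -0.99 (SE 0.47), 1.99-fold lower in Ri, with an edgeR p of 0.0794 and an adjusted p of 0.834. The counts were low, at 7.49 and 11.8 expected counts in Ri replicates 1 and 2 and 19.8 and 17.7 in WT replicates 1 and 2. The exact Poisson 95% intervals overlapped among all 4 libraries, since even Ri replicate 1 reached up to 1.14 FPKM and WT replicate 1 down to 0.906 FPKM.

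MYB29A2 (Glyma.02G005600.Wm82.a2.v1, chromosome 2) had 1.21 and 3.37 FPKM in Ri replicates 1 and 2, against 3.77 and 3.56 FPKM in WT replicates 1 and 2. As with IFS2, Ri replicate 1 stood apart and Ri replicate 2 was only slightly below WT, 2.96-fold and 1.12-fold under the WT mean in CPM. The exact Poisson 95% interval of Ri replicate 1, 0.734 to 1.90 FPKM, lay below those of the other 3 libraries, of which the lowest bound was 2.57 FPKM. Its log2 fold change was -0.68 (SE 0.47), with an edgeR adjusted p of 0.891. It was -0.15 without Ri replicate 1 and -1.55 (SE 0.42) without Ri replicate 2, with the spread taken from the WT libraries alone.

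Among the glyceollin genes the order of levels was less fixed than among the isoflavone genes. In WT it was MYB29A2, G2DT, NAC42-1 and G4DT in both libraries, and the values of neighbouring genes did not overlap, although their counting intervals did. In Ri replicate 1 it was G2DT, MYB29A2, NAC42-1 and G4DT. In Ri replicate 2 it was G4DT, MYB29A2, G2DT and NAC42-1. Within Ri the values of G2DT, MYB29A2 and G4DT overlapped, so their order there did not hold beyond the spread between the libraries.

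HIDH, NAC42-1 and MYB29A2 each had 1 gene whose expected counts added to whole numbers with theirs in every library. These partners, found after seeing the data, were Glyma.11G004200.Wm82.a2.v1, Glyma.14G030700.Wm82.a2.v1 and Glyma.10G006600.Wm82.a2.v1 in that order. Each came from a search of 34871 genes, and how often such a match arises by chance was not tested. IFS1 and IFS2 each had 1 further gene that met this condition besides each other. The partner was minor for HIDH, which held 98.7% to 99.3% of the pair's FPKM. MYB29A2 held 83.4% and 97.4% of its pair in Ri replicates 1 and 2, against 88.9% and 95.7% in WT replicates 1 and 2. NAC42-1 held 74.7% and 84.2% in Ri replicates 1 and 2, against 94.2% and 93.0% in WT replicates 1 and 2. This pair had only 10 and 14 counts in Ri replicates 1 and 2 and 21 and 19 in WT replicates 1 and 2. NAC42-1 had 7.49 and 11.8 of these in Ri and 19.8 and 17.7 in WT. The smaller share in both Ri libraries thus rests on very few estimated partner counts, and no interval was computed for it. Counted as 1 feature with its partner, NAC42-1 had a log2 fold change of -0.73 (SE 0.44, edgeR adjusted p 0.868), and MYB29A2 one of -0.70 (SE 0.43, adjusted p 0.872). The NAC42-1 estimate was smaller in size for the pair than for the gene alone, a change below the SE of either.

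**Figure D3:**
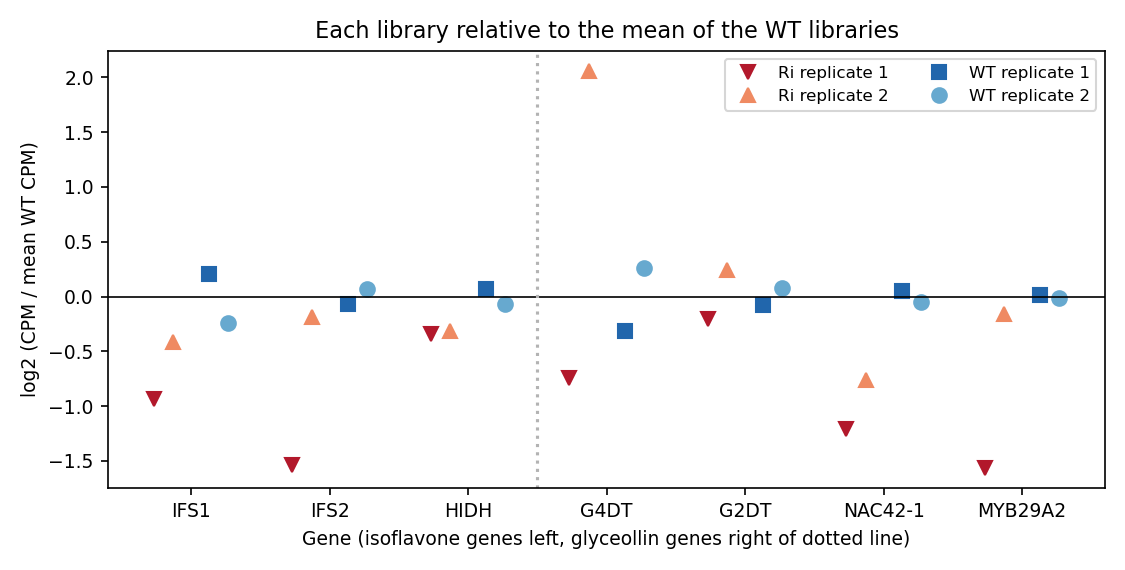
log2 ratio of each library's CPM to the mean of the WT libraries, for the 7 genes, Ri left of WT. Both Ri libraries lie below both WT libraries for IFS1, IFS2, HIDH, NAC42-1 and MYB29A2, while G4DT in Ri replicate 2 is at 2.06.

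Of the 7 genes edgeR called 0 with the adjusted p threshold of 0.05, where 0.117% of the 34151 tested genes were called (40 genes, all lower in Ri). None had an unadjusted p under 0.05 in the edgeR fit used throughout (TMM, low counts filtered, no block), against 6.25% of tested genes. IFS1 had one in edgeR without a filter, as did 2525 of 47915 genes in that fit. DESeq2's Wald test called 0 of the 7 genes and 316 of 34151 tested genes. Of the 7, only IFS1 had an unadjusted p under 0.05 in it, as had 1425 tested genes in all. limma-voom called 0 of all tested genes, so its 0 calls among the 7 say nothing about them. In that fit 0 of the 7 had an unadjusted p under 0.05, where 2069 of 34151 tested genes had one. The log2 fold change was below 0 for 5 of the 7 genes and for 47.9% of tested genes. The median over the 7 was -0.65, where the median over all tested genes was 0.02. Values did not overlap between genotypes, with Ri below WT, in 5 of 7 genes, in FPKM as well as in CPM. That pattern was found in 18.5% of tested genes. The reverse, Ri above WT, was found in 0 of 7 genes and in 17.7% of tested genes. These shares describe the 7 genes in these 4 libraries, and the genes share a pathway and cannot be counted as independent.

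**Figure D4:**
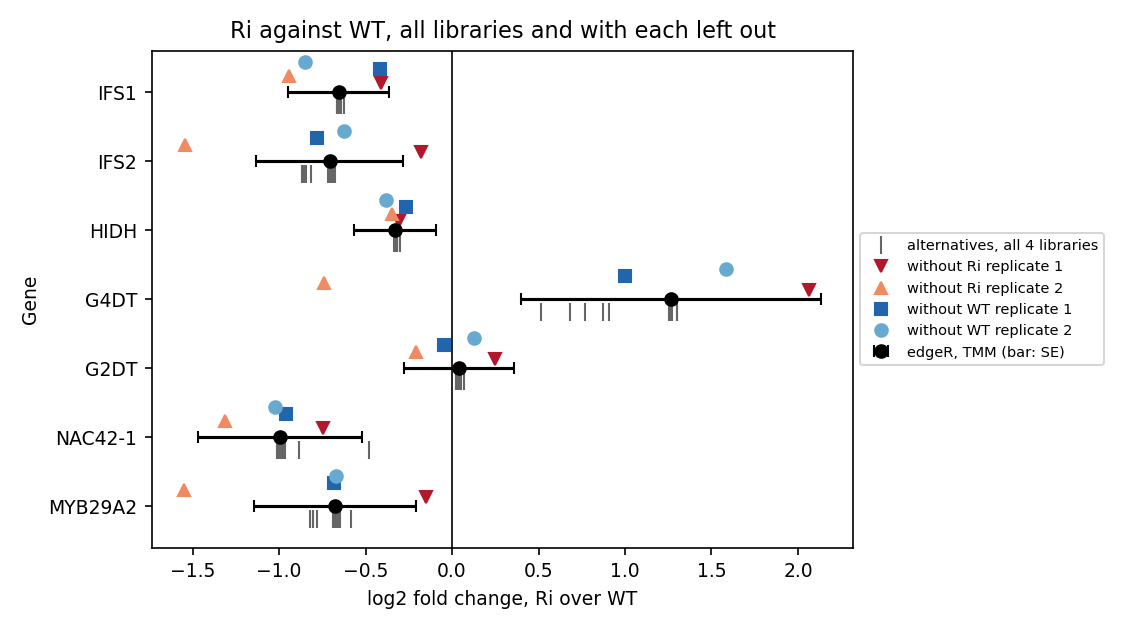
log2 fold change of Ri over WT for each gene: black points with SE bars are edgeR with TMM scaling and all 4 libraries, grey ticks the alternatives with all 4 libraries, and coloured symbols the fits with 1 library left out. IFS2 and MYB29A2 move to -1.54 and -1.55 without Ri replicate 2, and G4DT to -0.74.

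In each library every constitutive gene lay above every inducible gene. The least abundant isoflavone gene was 5.38-fold and 9.48-fold above the most abundant glyceollin gene in Ri replicates 1 and 2, against 9.40-fold and 10.5-fold in WT replicates 1 and 2. Summed FPKM of the isoflavone genes was 235 and 302 in Ri replicates 1 and 2, against 405 and 334 in WT replicates 1 and 2, with both Ri sums below both WT sums. Summed FPKM of the glyceollin genes was 4.55 and 10.97 in Ri replicates 1 and 2, against 8.49 and 8.59 in WT replicates 1 and 2, with the WT sums between the Ri sums. The glyceollin sum was 2.79% ± 1.20 of the isoflavone sum in Ri and 2.34% ± 0.337 in WT (SD, n = 2 each), which overlapped between genotypes. With 2 libraries against 2 an exact two-sided permutation test cannot give a p below 0.33. No p is given for a sum over the members of a group, since the members were chosen with results known.

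Within the glyceollin group the sums of the prenyltransferases and of the regulators were also compared as a ratio, chosen after the values were seen. The prenyltransferase sum was 2.75 and 6.75 FPKM in Ri replicates 1 and 2, against 3.25 and 3.71 FPKM in WT replicates 1 and 2. The regulator sum was 1.80 and 4.22 FPKM in Ri replicates 1 and 2, against 5.24 and 4.88 FPKM in WT replicates 1 and 2. Both sums were lower in Ri replicate 1 than in Ri replicate 2. Their ratio, prenyltransferases over regulators, was 1.53 and 1.60 in Ri replicates 1 and 2, against 0.620 and 0.760 in WT replicates 1 and 2. This ratio did not overlap between genotypes and was close between the Ri libraries, although its makeup there differed. G4DT and MYB29A2 had 0.47 and 1.21 FPKM in Ri replicate 1, but 3.48 and 3.37 FPKM in Ri replicate 2. The ratio was not tested, and no interval was computed for it. In Ri replicate 1 it rests on 8 and 37.99 expected counts for G4DT and G2DT, and 7.49 and 18.85 for NAC42-1 and MYB29A2.

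All 7 genes were lowest in Ri replicate 1, in FPKM and in CPM, as were 28.6% of tested genes in CPM. For G4DT, G2DT and NAC42-1 this rank lay within counting error, as their exact Poisson intervals in Ri replicate 1 overlapped those of WT. HIDH differed by only 1.02-fold between the Ri libraries in CPM. G4DT and G2DT were in addition highest in Ri replicate 2, a pattern of 11.8% of tested genes. For G2DT the interval of Ri replicate 2 overlapped that of every other library. The excess of Ri replicate 2 over Ri replicate 1 in CPM was 2.64-fold for MYB29A2 and 2.55-fold for IFS2. Differences as large in either direction were seen in 6.64% and 7.26% of tested genes in that order. For IFS1, NAC42-1 and G2DT it was 1.44-fold, 1.36-fold and 1.36-fold, as seen in 34.2%, 40.5% and 40.7% of tested genes. The WT replicates differed by 1.10-fold for IFS2 and 1.01-fold for MYB29A2. Their spread in Ri was therefore not seen in WT. The larger spread between the Ri libraries entered the SE of each of these genes, and its cause was not tested.

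**Figure D5:**
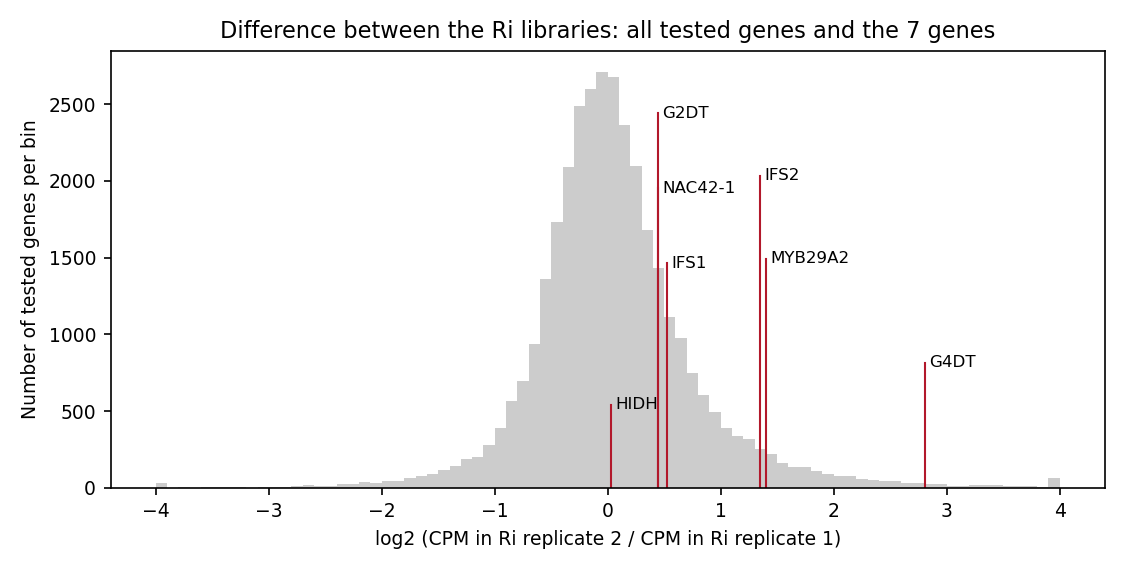
Histogram of the log2 ratio of CPM in Ri replicate 2 to CPM in Ri replicate 1 over tested genes above 0 in both (34064 genes, grey bars, ratios beyond the range of the bins collected in the end bins), with the 7 genes as red lines whose height has no meaning. All 7 lie right of 0, from a 1.02-fold excess for HIDH to a 7.01-fold excess for G4DT.

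The other genes of the pathway were represented by 16 identifiers written down from general knowledge, covering chalcone formation to pterocarpan steps, and no table used here annotates them. They are therefore given only as counts. All 16 were listed in at least 1 library, and 11 passed the filter. Of these 11, 0 were called in either direction, where 0.117% of tested genes were. At an unadjusted p under 0.05, 1 was lower and 0 were higher in Ri, where 6.25% of tested genes met this in either direction. The log2 fold change was below 0 for 7 of the 11, against 47.9% of tested genes. Its median over the 11 was -0.35, against 0.02 over all tested genes, with a range of -1.43 to 1.74. Both Ri libraries lay below both WT libraries for 5 of them and above for 0, against 18.5% and 17.7% of tested genes. Ri replicate 1 was the lowest library for 8 of the 11, against 28.6% of tested genes.

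As a measure of likeness in pattern, each gene's log2 CPM was centred on its mean over the 4 libraries and compared with the mean profile of a group. The isoflavone profile was -0.63 and 0.01 in Ri replicates 1 and 2, against 0.38 and 0.23 in WT replicates 1 and 2. Of 20244 other genes with a mean of at least 8 CPM over the 4 libraries, 390 (1.93%) lay within 0.25 of it in every library. The nearest was Glyma.02G099200.Wm82.a2.v1, with a largest difference of 0.02 and levels of 14.2 and 21.7 CPM in Ri against 28.4 and 25.9 CPM in WT. The glyceollin profile was -0.78 and 0.50 in Ri replicates 1 and 2, against 0.07 and 0.22 in WT replicates 1 and 2, and 134 genes (0.662%) lay within 0.25 of it. The nearest was Glyma.13G095300.Wm82.a2.v1, with a largest difference of 0.07 and levels of 7.77 and 18.02 CPM in Ri against 12.9 and 14.5 CPM in WT. Both profiles are averages of unlike members. In Ri replicate 1 the centred values of the isoflavone genes ran from -1.11 for IFS2 to -0.18 for HIDH. In Ri replicate 2 those of the glyceollin genes ran from -0.27 for NAC42-1 to 1.75 for G4DT. Each glyceollin gene lay below 8 CPM in all 4 libraries, so the genes compared with this profile were more abundant on average. A profile over 4 libraries is met by many genes and says nothing of a shared function.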

How the data were processed

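Root RNA of 2 Ri and 2 WT samples was sequenced. Per the labels' protocols, Trizol was used for RNA isolation and a BGI kit for the libraries. The submitters' processing notes list HISAT, Bowtie2 and RSEM without versions, and the role of each, the settings and the use of strand are not stated there. The deposited expected counts are estimated fragments per gene, not normalized. The authors' FPKM values scale these counts by transcript length and depth, and the length column, per the file headers, is in bases. The tables list genes with a value above 0, and an unlisted gene was taken as 0.

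Expected counts were rounded and tested with edgeR 4.0.16 in R 4.3.3 (quasi-likelihood test, TMM, default filter, robust, genotype as the only term, Benjamini-Hochberg adjustment over all tested genes, threshold 0.05). SE is the log2 fold change over the root of F. Fold changes quoted with p-values are from this fit. The alternatives were other scalings and filters, DESeq2 1.42.0, limma 3.58.1 (voom, and log2 FPKM with a pseudocount of 1 or 0.1), a replicate block, each library left out, and pairs summed. With 1 library left in a genotype, that library was assumed to vary like those of the other genotype. The edgeR fit above, DESeq2, limma-voom and the replicate block were also run on simulated counts, and no result of this is given here. Intervals (95%) cover counting error only. The members and lists were chosen with earlier results of these data known. The named genes are the 7 members and, per group, the 1 gene nearest in profile. The partner genes were named after their values were seen. No sequence or coordinate was used here.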

Additional observations from a re-analysis of the deposited data

How the results depend on the processing

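The log2 fold changes of the 7 genes kept their sign in 106 of 109 values over the alternatives. G4DT, G2DT and NAC42-1 did not pass the stricter filter and have no value there. The exceptions were G4DT without Ri replicate 2 (-0.74), and G2DT without WT replicate 1 (-0.05) and without Ri replicate 2 (-0.21). For IFS1, IFS2, HIDH, NAC42-1 and MYB29A2 the sign was all but fixed by values that do not overlap. With all 4 libraries no alternative called any of the 7 genes, and the smallest adjusted p was 0.363, for IFS1 in edgeR with the crossed block. Over the fits with 1 library left out the log2 fold changes ran from -0.74 to 2.06 for G4DT, from -0.21 to 0.25 for G2DT and from -1.54 to -0.18 for IFS2. On log2(FPKM + 1) the values were nearer 0 for the low genes, 0.52 for G4DT and -0.48 for NAC42-1, as the pseudocount is large beside their levels.

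The number of genes called among all tested was 40. It was 14 with the stricter filter, 13 with robust estimation off, 12 with upper-quartile factors, 164 without a filter and 316 in DESeq2. It was 0 with library totals (2131 genes at an unadjusted p under 0.05), in limma-voom (2069) and in limma on log2(FPKM + 1) (2227) or log2(FPKM + 0.1) (2198). Leaving out 1 library gave 0 to 1994. With the replicate block 107 genes were called, 0 of the 7 among them. IFS2 had an unadjusted p under 0.05 in this fit, as had 1529 tested genes in all. The numbers were not taken as pairs, as the differences between replicates 1 and 2 in Ri and WT had a correlation across genes of -0.31. The crossed replicate block, added for this reason after seeing the data, called 68 genes, 0 of the 7 among them. IFS1 had an unadjusted p under 0.05 with it, as had 2948 tested genes in all. For these counts the cause was not tested. In CPM in place of FPKM, the glyceollin sum was 1.85% of the isoflavone sum in WT and 2.30% in Ri. Leaving out 1 library only returns the FPKM value of the other library of that genotype. These values were 1.94% and 3.64% in Ri replicates 1 and 2, against 2.10% and 2.57% in WT replicates 1 and 2. Depth limits NAC42-1 and G4DT, with as few as 7.49 and 8 expected counts in a library.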
